A study of Saccharomyces cerevisiae S288C with 72 samples.

Results

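SUC2, MIG1, MIG2, RGT1, SNF3, RGT2, MTH1 and STD1 are 8 genes of the budding yeast Saccharomyces cerevisiae that sense glucose, repress transcription in its presence or are repressed by it. They were chosen by name from the 5803 genes of the deposited table, and all 8 were found. RNA-seq of rRNA-depleted total RNA was run on 3 strains of the S288C background. The nde1∆ nde2∆ ndi1∆ mutant (cDBY0085) lacks the external and internal mitochondrial NADH dehydrogenases, the cox4∆ mutant (cDBY0045) lacks a subunit of cytochrome c oxidase, and wild type (cDBY001) carries neither change. All 3 grew at 30 °C in flasks of YNB with ammonium and 2% glucose, with 24 samples per strain taken at the same hours, from 0 to 58 h, or 72 libraries in all. Each genotype is 1 strain and, as far as the labels say, 1 culture, so p-values speak only of the scatter among sampling times of single cultures.

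Glucose acts on these genes by 2 routes. Snf3 and Rgt2 are plasma-membrane sensors related to hexose carriers, and when they bind glucose the casein kinases Yck1 and Yck2 mark Mth1 and Std1 for destruction through the ubiquitin ligase subunit Grr1. Mth1 and Std1 otherwise help the zinc-cluster protein Rgt1 to hold hexose carrier (HXT) genes off. By the other route Mig1 and Mig2, zinc-finger proteins that work with the Cyc8-Tup1 corepressor, silence genes such as SUC2 in glucose, and the kinase Snf1 removes Mig1 from the nucleus when glucose runs out. SUC2 encodes invertase, which splits sucrose outside the cell.

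The DNA upstream of the members holds letters that Mig1 and Rgt1 are known to bind, and stretches of 5 members are given here because the levels described further on belong to genes of this circuit. Sequences are from the RefSeq R64 genome, the assembly behind the submitters' build sacCer3, written 5′ to 3′ on the strand of the gene. Capitals mark the core of Mig1, which was searched as GCGGGG or, with T second, as GTGGGG and, with C first, as CCGGGG or likewise as CTGGGG, and the core CGGANNA of Rgt1, all on both strands.
SUC2 (chrIX:36875-36994, plus strand): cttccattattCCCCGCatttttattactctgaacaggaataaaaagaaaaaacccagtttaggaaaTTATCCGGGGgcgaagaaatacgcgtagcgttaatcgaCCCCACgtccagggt
MIG2 (chrVII:95483-95657, plus strand): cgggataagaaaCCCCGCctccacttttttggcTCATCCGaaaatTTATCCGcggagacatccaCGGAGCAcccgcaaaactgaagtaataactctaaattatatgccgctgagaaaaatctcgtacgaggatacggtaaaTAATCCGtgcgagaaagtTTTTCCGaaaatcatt
SNF3 (chrIV:111255-111354, plus strand): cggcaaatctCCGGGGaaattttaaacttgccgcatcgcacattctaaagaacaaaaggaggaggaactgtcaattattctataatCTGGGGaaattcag
MTH1 (chrIV:1016118-1016222, minus strand): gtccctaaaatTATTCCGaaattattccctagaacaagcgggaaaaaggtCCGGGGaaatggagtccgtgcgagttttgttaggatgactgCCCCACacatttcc
STD1 (chrXV:417897-417961, minus strand): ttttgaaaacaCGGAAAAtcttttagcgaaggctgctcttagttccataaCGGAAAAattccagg

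In the 600 bases before the start codon SUC2 had 3 Mig1 cores, at 499 to 494, 439 to 434 and 405 to 400 bases before the start. Its single Rgt1 core overlaps the middle one in the run TTATCCGGGG. MIG1 had 4 Mig1 cores and 1 Rgt1 core, spread from 465 to 133 bases before its start and not printed here, MIG2 had 1 and 5, SNF3 had 2 and 0, and MTH1 had 2 of each, 1 of its Rgt1 cores lying outside the stretch shown. RGT1 had 1 Rgt1 core and no Mig1 core, STD1 had 2 and none, and RGT2 had neither. A Mig1 core was thus found before 5 of the 8 members and before 27.8% of 5999 genes with such a window, and an Rgt1 core before 6 of the 8 and before 48.0% of those genes. In the shorter window of 250 bases before to 50 after the start, 2 of the 8 held a Mig1 core (11.6% of 6001 genes) and 2 an Rgt1 core (26.4%). These matches describe letters and not bound sites. SUC2 (YIL162W, chrIX:37385-38983), MIG1 (YGL035C, chrVII:431548-433062), MIG2 (YGL209W, chrVII:95858-97006) and RGT1 (YKL038W, chrXI:365605-369117) each have 1 coding exon. So do SNF3 (YDL194W, chrIV:111580-114234), RGT2 (YDL138W, chrIV:213351-215642), MTH1 (YDR277C, chrIV:1014401-1015702) and STD1 (YOR047C, chrXV:416347-417681).

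Levels are in TPM, a scale of transcript abundance per length, rescaled so that nuclear genes had the same total in every library. Read numbers are not part of TPM, so sequencing depth is unknown here and values carry no counting intervals. None of the 576 member values stood at the floor of 0.1 TPM that the deposited table has, and the lowest was 1.25 TPM. NDE1, NDE2 and NDI1 had medians of 0.930, 0.1 and 0.282 TPM in the nde1∆ nde2∆ ndi1∆ mutant, against 516, 67.6 and 149.9 TPM in wild type, and COX4 had a median of 1.36 TPM in the cox4∆ mutant, against 604 TPM in wild type. TPM are shares of a library, so less of a transcript and more of the others cannot be told apart. The row letter in the sample descriptions differs between strains and changes within each strain between 13 and 14 h, so an effect of the row and one of strain or time cannot be told apart.

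SUC2 was higher in both mutants than in wild type through the whole late window, and wild type had only a short maximum before it. In the late window, 18 to 58 h, SUC2 ran between 436 and 1091 rescaled TPM in the 9 libraries of the nde1∆ nde2∆ ndi1∆ mutant (median 853.5), between 569 and 1483 in the 9 of the cox4∆ mutant (median 980.2), and between 51.8 and 91.8 in the 9 of wild type (median 72.6). Neither mutant overlapped wild type, and each was higher at 9 of 9 hours. The log2 difference from wild type was 3.47 (SE 0.31, adjusted p = 9.66e-14) for the nde1∆ nde2∆ ndi1∆ mutant and 3.75 (SE 0.31, adjusted p = 1.01e-14) for the cox4∆ mutant.

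The strains reached their SUC2 maximum at different hours. The level was 272 rescaled TPM at 11 h and 1549.8 at 12 h in the nde1∆ nde2∆ ndi1∆ mutant, its maximum, which is 28.4 times the mean of its early window (0 to 8 h). The cox4∆ mutant had 559 at 13 h and 3060.3 at 14 h, its maximum, 60.6 times the early mean. Wild type had 76.8 at 13 h, 269 at 14 h, a maximum of 389 at 15 h, 8.65 times its early mean, then 177 at 16 h and 78.4 at 18 h. The cox4∆ maximum is 1 library, and its neighbours at 15 to 18 h lay between 1412 and 1482. At 58 h SUC2 stood at 436 rescaled TPM in the nde1∆ nde2∆ ndi1∆ mutant and 635 in the cox4∆ mutant, against 51.8 in wild type, or 28.2%, 20.7% and 13.3% of the maximum of each strain. In the early window the 3 strains overlapped, with medians of 58.0, 49.7 and 45.8 rescaled TPM in the nde1∆ nde2∆ ndi1∆ mutant, the cox4∆ mutant and wild type.

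**Figure D1:**
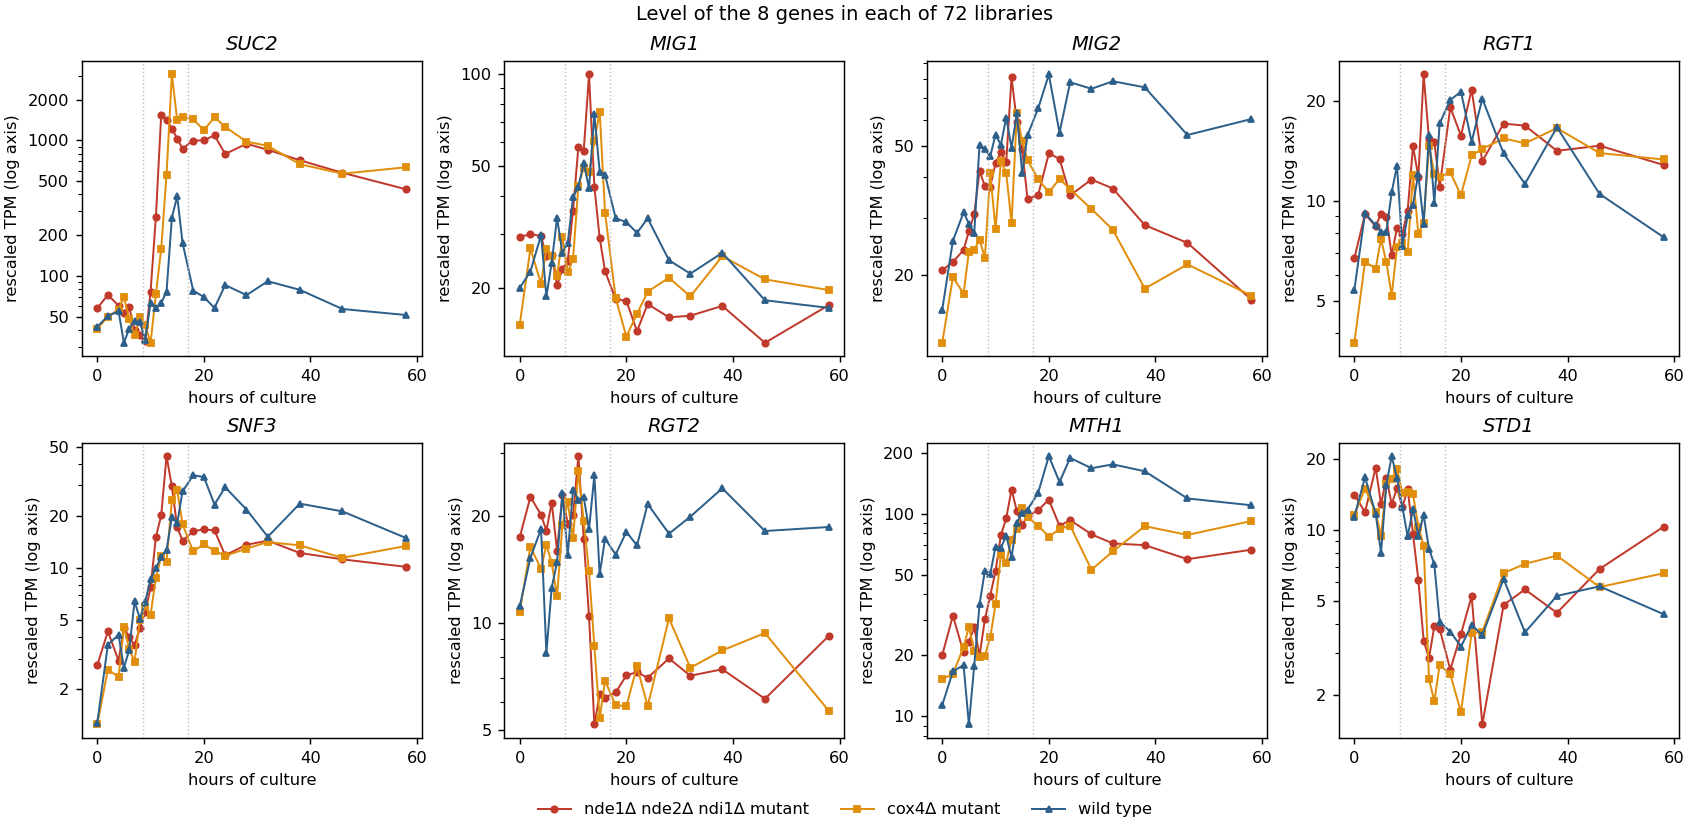
Rescaled TPM on a log axis against hours of culture for each of the 8 genes, 1 point per library (nde1∆ nde2∆ ndi1∆ mutant circles, cox4∆ mutant squares, wild type triangles), with dotted lines between the early, middle and late windows. In the late window SUC2 of both mutants lies above 436 while wild type does not pass 91.8, and RGT2 and MIG2 of both mutants lie below every wild-type library.

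Among the repressor genes, MIG2 was lower in both mutants than in wild type late in the culture. Late MIG2 ran between 16.8 and 47.3 rescaled TPM in the nde1∆ nde2∆ ndi1∆ mutant (median 35.3), between 17.3 and 39.5 in the cox4∆ mutant (median 31.9) and between 53.9 and 82.7 in wild type (median 74.8). The mutants did not overlap wild type, and were lower at all 9 hours. The log2 difference was -1.03 (SE 0.14, adjusted p = 4.18e-09) in the nde1∆ nde2∆ ndi1∆ mutant and -1.24 (SE 0.14, adjusted p = 4.38e-11) in the cox4∆ mutant. The median over all genes was itself at -0.65 and -0.61 in the same comparisons. MIG2 was not called in the middle window, where medians were 46.1 and 43.0 rescaled TPM in the nde1∆ nde2∆ ndi1∆ and cox4∆ mutants and 52.0 in wild type. By 58 h it was 16.8 and 17.3 in the mutants and 60.3 in wild type.

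MIG1, the gene of the main repressor of SUC2, had a short maximum in the middle window of every strain. That maximum was 99.8 rescaled TPM at 13 h in the nde1∆ nde2∆ ndi1∆ mutant, 75.4 at 15 h in the cox4∆ mutant and 74.0 at 14 h in wild type. Late MIG1 ran between 13.2 and 18.3 rescaled TPM (median 17.4) and between 13.8 and 25.3 (median 19.4) in the nde1∆ nde2∆ ndi1∆ and cox4∆ mutants, and between 17.2 and 33.7 in wild type (median 26.0). The windows overlapped, and the log2 differences of -0.62 (SE 0.16, adjusted p = 0.000706) and -0.41 (SE 0.16, adjusted p = 0.0217) were under 2-fold. RGT1, the gene of the HXT repressor, had late medians of 15.7, 13.9 and 15.1 rescaled TPM in the nde1∆ nde2∆ ndi1∆ mutant, the cox4∆ mutant and wild type. Its log2 differences from wild type, 0.12 (SE 0.14, adjusted p = 0.415) and -0.07 (SE 0.14, adjusted p = 0.641), were within the spread.

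The sensor genes did not behave alike. RGT2, whose protein senses high glucose, was lower late in both mutants than in wild type. Late RGT2 ran between 6.11 and 9.19 rescaled TPM in the nde1∆ nde2∆ ndi1∆ mutant (median 7.11), between 5.65 and 10.3 in the cox4∆ mutant (median 7.47) and between 15.5 and 23.9 in wild type (median 18.1). Neither mutant overlapped wild type, and both were lower at 9 of 9 hours. The log2 differences were -1.26 (SE 0.15, adjusted p = 6.80e-10) in the nde1∆ nde2∆ ndi1∆ mutant and -1.27 (SE 0.15, adjusted p = 6.76e-10) in the cox4∆ mutant. Here too the median over all genes was at -0.65 and -0.61. In the middle window RGT2 was 29.4 at 11 h and 5.18 at 14 h in the nde1∆ nde2∆ ndi1∆ mutant, and 26.7 at 11 h and 5.39 at 15 h in the cox4∆ mutant. The lowest wild-type library after 5 h had 12.6 rescaled TPM.

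SNF3, whose protein senses low glucose, rose late against early in all 3 strains. Its maximum was 44.2 rescaled TPM at 13 h in the nde1∆ nde2∆ ndi1∆ mutant, 28.2 at 15 h in the cox4∆ mutant and 34.3 at 18 h in wild type, or 11.6, 8.91 and 9.04 times the early means. Late SNF3 ran between 10.2 and 16.8 rescaled TPM in the nde1∆ nde2∆ ndi1∆ mutant (median 13.6), between 11.5 and 14.1 in the cox4∆ mutant (median 13.0) and between 14.9 and 34.3 in wild type (median 23.3). Both mutants were lower than wild type at 9 of 9 hours, and the cox4∆ mutant did not overlap it. The log2 differences of -0.74 (SE 0.17, adjusted p = 0.000118) and -0.80 (SE 0.17, adjusted p = 4.09e-05) passed the p threshold but not the 2-fold one.

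MTH1 and STD1, the paralogous corepressors of Rgt1, moved in opposite directions over time in every strain, although under median-of-ratios scaling the fall of STD1 was under 2-fold in both mutants. Late MTH1 ran between 59.7 and 118 rescaled TPM in the nde1∆ nde2∆ ndi1∆ mutant (median 79.2), between 53.0 and 92.2 in the cox4∆ mutant (median 84.2) and between 110 and 193 in wild type (median 162). Both mutants were lower at all 9 hours, and the cox4∆ mutant did not overlap wild type. The log2 differences of -0.89 (SE 0.17, adjusted p = 1.10e-05) and -0.95 (SE 0.17, adjusted p = 4.05e-06) were just under 2-fold. By its median STD1 was the lowest of the 8 in the late window of every strain, with medians of 4.82, 5.73 and 3.96 rescaled TPM in the nde1∆ nde2∆ ndi1∆ mutant, the cox4∆ mutant and wild type. All 3 overlapped, and the log2 differences were 0.05 (SE 0.18, adjusted p = 0.803) and 0.08 (SE 0.18, adjusted p = 0.709). In the nde1∆ nde2∆ ndi1∆ mutant STD1 was 1.50 at 24 h and 10.3 at 58 h, whereas wild type kept between 3.21 and 6.20 over the whole late window. The value at 24 h is 1 library, between 5.24 at 22 h and 4.82 at 28 h.

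Counted together, few members differed from wild type before the late window. A gene was called when its limma p, adjusted by Benjamini-Hochberg over 5721 genes, was under 0.05 and the 2 groups differed at least 2-fold. In the early window limma called 0 of the 8 in the nde1∆ nde2∆ ndi1∆ mutant, where 0.245% of all genes were called and 1 member, RGT2, had an unadjusted p under 0.05. It called 0 of 8 in the cox4∆ mutant too, where 0.769% of genes were called and 2 members, MIG2 and RGT1, had an unadjusted p under 0.05. In the middle window 1 of 8, SUC2, was called in the nde1∆ nde2∆ ndi1∆ mutant (4.46% of all genes called), with a log2 difference of 2.14 (SE 0.33, adjusted p = 3.77e-06). SUC2 was also the 1 of 8 called in the cox4∆ mutant (2.83% of all genes), with a difference of 1.54 (SE 0.33, adjusted p = 0.000523). That call was lost without the hour as a block and when the middle window was cut to 9 to 13 h (difference 0.78), and the difference was 2.81 over 14 to 16 h.

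In the late window 1 of 8 members was higher and 2 were lower in the nde1∆ nde2∆ ndi1∆ mutant, SUC2 against MIG2 and RGT2, where 32.1% of all genes were called. Against the same wild-type libraries, the same 3 genes were called in the same directions in the cox4∆ mutant, where 28.8% of all genes were called. Shares of 3 in 8 are thus near the background. Between the mutants, cox4∆ minus nde1∆ nde2∆ ndi1∆, limma called 0 of 8 in the late window, no member had an unadjusted p under 0.05, and 0.297% of all genes were called. For SUC2 that difference was 0.27 (SE 0.31, adjusted p = 0.814).

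The SUC2 call held under both other scalings of the libraries, whereas the calls of MIG2 and RGT2 did not hold under median-of-ratios scaling. With a common total, the median gene was itself lower late in the mutants, by -0.65 on the log2 scale in the nde1∆ nde2∆ ndi1∆ mutant and -0.61 in the cox4∆ mutant, and the medians of the 8 members were -0.68 and -0.61. Under median-of-ratios scaling, which places the median gene at -0.04 and -0.03, the SUC2 differences were 4.14 and 4.37. MIG2 was then at -0.37 and -0.62 and RGT2 at -0.65 and -0.69, which are under 2-fold, SNF3 at -0.11 and -0.21, and MTH1 at -0.22 and -0.32. MIG1 changed sign, to 0.02 and 0.19. RGT1 was at 0.75 (adjusted p = 2.65e-06) in the nde1∆ nde2∆ ndi1∆ mutant and, with its sign changed, at 0.51 (adjusted p = 0.000748) in the cox4∆ mutant. STD1 was at 0.59 (adjusted p = 0.00095) and 0.57 (adjusted p = 0.00131), so that RGT1 and STD1 passed the p threshold of limma under this scaling but not the 2-fold one. Over all genes this scaling called 487 higher and 424 lower in the nde1∆ nde2∆ ndi1∆ mutant and 441 and 420 in the cox4∆ mutant, against 155 and 1681 and against 141 and 1504 with a common total. With a pseudocount of 5 the RGT2 calls in both mutants and the MIG2 call in the nde1∆ nde2∆ ndi1∆ mutant were lost too, and the MIG2 call also over 18 to 32 h.

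**Figure D2:**
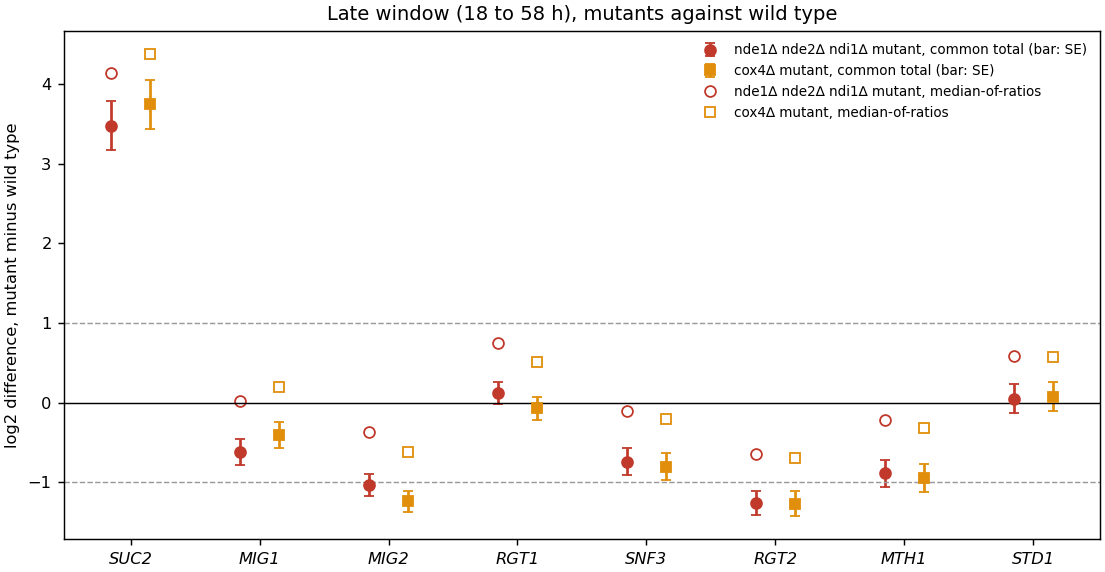
Log2 difference from wild type in the late window for each of the 8 genes, nde1∆ nde2∆ ndi1∆ mutant circles and cox4∆ mutant squares, filled with a common total (bars are SE of the fit) and open under median-of-ratios scaling; dashed lines mark 2-fold. SUC2 lies above 3 in both mutants under both scalings, while MIG2 and RGT2 pass -1 only with a common total.

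Within each strain the late window was also set against the early one. In the nde1∆ nde2∆ ndi1∆ mutant SUC2 (log2 difference 3.87, SE 0.59), MTH1 (1.70, SE 0.23) and SNF3 (1.61, SE 0.27) rose, and STD1 (-1.48, SE 0.29) and RGT2 (-1.33, SE 0.23) fell. These are 3 higher and 2 lower of 8, where 52.2% of all genes were called. In the cox4∆ mutant SUC2 (4.25, SE 0.59), MTH1 (1.92, SE 0.23), SNF3 (1.80, SE 0.27) and RGT1 (1.06, SE 0.17) rose and STD1 (-1.39, SE 0.29) fell, 5 of 8 beside 47.9% of all genes. RGT2 was at -0.92 (SE 0.23, adjusted p = 0.000235) there, under 2-fold. In wild type MTH1 (2.89, SE 0.23), SNF3 (2.42, SE 0.27) and MIG2 (1.15, SE 0.20) rose and STD1 (-1.47, SE 0.29) fell, 4 of 8 beside 33.1% of all genes. Wild-type SUC2 was at 0.66 (SE 0.59, adjusted p = 0.327) and RGT2 at 0.38 (SE 0.23, adjusted p = 0.130). MIG2 was at 0.22 (SE 0.20, adjusted p = 0.297) in the nde1∆ nde2∆ ndi1∆ mutant and 0.47 (SE 0.20, adjusted p = 0.0253) in the cox4∆ mutant. Under median-of-ratios scaling 4 members were higher and 0 lower in each mutant, with STD1 at -0.89 and -0.96 and RGT2 at -0.70 in the nde1∆ nde2∆ ndi1∆ mutant, all under 2-fold, and wild type had 3 higher and 1 lower. Of all genes, that scaling called 21.2% higher and 22.1% lower in the nde1∆ nde2∆ ndi1∆ mutant. The same shares were 20.8% and 21.7% in the cox4∆ mutant and 17% and 15.6% in wild type. The STD1 calls in the mutants were also lost with a pseudocount of 5, and in the cox4∆ mutant with a late window of 28 to 58 h. The RGT1 call was lost with a pseudocount of 5 (0.76) and, like that of MIG2 in wild type, with an early window of 4 to 8 h.

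Whether the change over time differed between a mutant and wild type was tested directly, as late minus early in the mutant minus the same in wild type. In the nde1∆ nde2∆ ndi1∆ mutant the difference was called for 3 of 8 members, 1 higher and 2 lower, with 36.3% of all genes called. These were SUC2 at 3.21 (SE 0.46, adjusted p = 1.22e-07), RGT2 at -1.71 (SE 0.23, adjusted p = 3.71e-08) and MTH1 at -1.19 (SE 0.26, adjusted p = 0.000114). In the cox4∆ mutant it was called for 2 of 8, with 29.6% of all genes called, SUC2 at 3.59 (SE 0.46, adjusted p = 2.03e-08) and RGT2 at -1.30 (SE 0.23, adjusted p = 8.19e-06). MTH1 there was at -0.97 (SE 0.26, adjusted p = 0.00148). The median gene stood at -0.72 and -0.56 in these comparisons, and under median-of-ratios scaling RGT2 was at -1.03 and -0.78 and MTH1 at -0.46 and -0.41. The MTH1 call was lost in that case, with adjusted p = 0.180, and with an early window of 4 to 8 h. The RGT2 call in the cox4∆ mutant was lost under that scaling and with a pseudocount of 5.

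The strains shifted their hexose carrier genes at different hours, so the members were also read from a common mark. The mark was the first hour from which HXT3, a low-affinity hexose carrier gene, stayed under 50% of its own mean over 7 to 9 h. It fell at 12 h in the nde1∆ nde2∆ ndi1∆ mutant, 14 h in the cox4∆ mutant and 16 h in wild type. HXT7, a high-affinity carrier gene, had its maximum at 12, 14 and 15 h in the same strains. The 4 libraries from the mark on (12 to 15 h, 14 to 18 h and 16 to 22 h in the same strains) were set against the 4 before it (8 to 11 h, 10 to 13 h and 12 to 15 h). In the cox4∆ mutant the row letter changes exactly at the mark, so an effect of the row and one of the mark cannot be told apart there. The letter changes among the libraries after the mark in the nde1∆ nde2∆ ndi1∆ mutant, and among those before it in wild type.

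After the mark SUC2 had 1549.8, 1424, 1222 and 1033 rescaled TPM in the nde1∆ nde2∆ ndi1∆ mutant, against 37.2, 33.5, 76.0 and 272 before it. The cox4∆ mutant had 3060.3, 1412, 1482 and 1436 after the mark, against 32.3, 73.8, 159 and 559 before it. In wild type it had 177, 78.4, 70.3 and 58.3 after the mark, against 63.5, 76.8, 269 and 389 before it. The mutants' phases did not overlap, and those of wild type did. STD1 had 6.15, 3.40, 2.86 and 3.91 rescaled TPM after the mark in the nde1∆ nde2∆ ndi1∆ mutant, against 15.0, 12.5, 14.8 and 9.64 before it. STD1 in the cox4∆ mutant had 2.34, 1.88, 2.68 and 2.45, against 14.5, 14.2, 10.3 and 8.58 before the mark. In wild type it had 4.08, 3.71, 3.21 and 3.96, against 9.46, 11.6, 8.32 and 7.14 before. STD1 did not overlap between phases in any of the 3 strains. RGT2 had 17.2, 10.4, 5.18 and 6.29 rescaled TPM after the mark in the nde1∆ nde2∆ ndi1∆ mutant, against 22.8, 18.996, 20.0 and 29.4 before it. The cox4∆ mutant had 8.60, 5.39, 6.87 and 5.86 for RGT2 after the mark, against 17.3, 26.7, 19.3 and 13.9 before it. Wild type had 17.2, 15.5, 18.0 and 16.5 after, against 22.5, 18.3, 25.9 and 13.7 before. RGT2 phases overlapped in wild type and in neither mutant.

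After minus before the mark, SUC2 (log2 difference 4.15, SE 0.69), SNF3 (1.68, SE 0.32) and MTH1 (1.12, SE 0.26) rose and STD1 (-1.48, SE 0.20) and RGT2 (-1.25, SE 0.27) fell in the nde1∆ nde2∆ ndi1∆ mutant, 5 of 8 beside 38.4% of all genes. In the cox4∆ mutant SUC2 (3.83, SE 0.69) and SNF3 (1.09, SE 0.32) rose and STD1 (-1.93, SE 0.20) and RGT2 (-1.38, SE 0.27) fell, 4 of 8 beside 41.4% of all genes. In wild type STD1 fell (-1.08, SE 0.20, adjusted p = 0.00123), 1 of 8 beside 5.23% of all genes, and SUC2 was at -0.79 (SE 0.69, adjusted p = 0.502). The 4 wild-type libraries before the fall of HXT3 hold the maximum of 389 rescaled TPM at 15 h. With the mark moved to the HXT7 maximum at 15 h, that library stands after it, and wild-type SUC2 was at 0.57 instead.

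Under median-of-ratios scaling the counts across the mark were 6 higher and 0 lower in the nde1∆ nde2∆ ndi1∆ mutant and 5 higher and 1 lower in the cox4∆ mutant, against 3 and 2 and against 2 and 2 with a common total. Of all genes, that scaling called 14.5% higher and 15.1% lower in the nde1∆ nde2∆ ndi1∆ mutant, and 15.1% and 16.9% in the cox4∆ mutant. RGT2 was then at -0.70 and -0.74 in the nde1∆ nde2∆ ndi1∆ and cox4∆ mutants and STD1 at -0.96 in the nde1∆ nde2∆ ndi1∆ mutant, all under 2-fold, while STD1 in the cox4∆ mutant was at -1.37. Both RGT2 and STD1 in the nde1∆ nde2∆ ndi1∆ mutant also lost their calls with a pseudocount of 5, as did STD1 in wild type. The SNF3 call in the cox4∆ mutant was lost in 4 of 17 settings, a pseudocount of 5 and leaving out the position 4 before the mark, that at the mark or the one after it, with a lowest value of 0.85. The MTH1 call in the nde1∆ nde2∆ ndi1∆ mutant was lost with 3 libraries on each side and without the position 4 before the mark, with a lowest value of 0.91. The STD1 call in wild type was lost without the position 3 before the mark.

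Set against wild type after the mark, SUC2 was the 1 of 8 called in the nde1∆ nde2∆ ndi1∆ mutant (3.88, SE 0.69, adjusted p = 0.000229), where 18.5% of all genes were called. RGT2 was at -0.86 (SE 0.27, adjusted p = 0.0132) there. There were 2 of 8 called in the cox4∆ mutant, SUC2 at 4.31 (SE 0.69, adjusted p = 2.98e-05) and RGT2 at -1.23 (SE 0.27, adjusted p = 0.000478), beside 33.1% of all genes. The change across the mark differed from wild type in SUC2 and RGT2 in both mutants, 2 of 8 each. SUC2 was at 4.94 (SE 0.98, adjusted p = 0.00163) and RGT2 at -1.04 (SE 0.38, adjusted p = 0.0336) in the nde1∆ nde2∆ ndi1∆ mutant, where 27.9% of all genes were called. They were at 4.62 (SE 0.98, adjusted p = 0.00158) and -1.17 (SE 0.38, adjusted p = 0.0164) in the cox4∆ mutant, where 32.5% were called. With the mark at the HXT7 maximum, which is another hour in wild type only, SUC2 was at 3.58 and 3.26 and stayed called. Both RGT2 values were under 2-fold with median-of-ratios scaling, at -0.51 and -0.55, and the calls were lost in 10 and 6 of 17 alternative settings. After the mark itself RGT2 in the cox4∆ mutant was at -0.58 under that scaling and not called, nor was it with a pseudocount of 5. That scaling called 2 members higher and 0 lower after the mark in the nde1∆ nde2∆ ndi1∆ mutant, and 3 higher and 0 lower in its change across the mark relative to wild type. Of all genes it called 4.01% higher and 3.83% lower after the mark in that mutant, and 9.24% and 7.1% in that change.

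**Figure D3:**
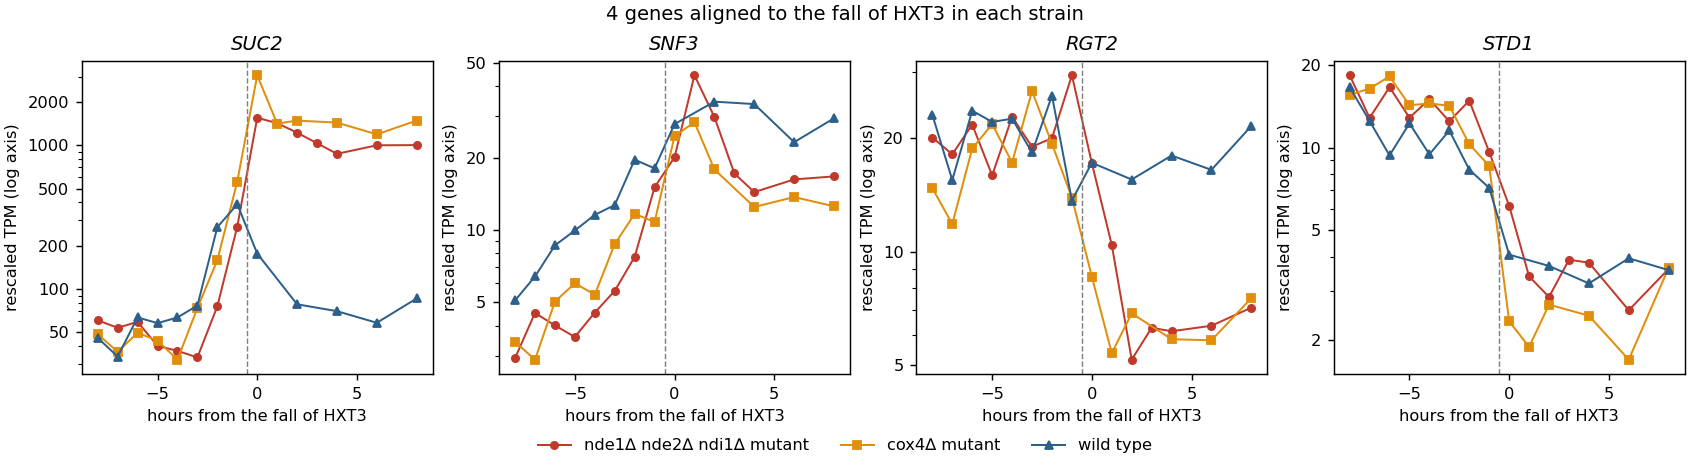
Rescaled TPM on a log axis against hours from the fall of HXT3 in each strain (12 h in the nde1∆ nde2∆ ndi1∆ mutant, 14 h in the cox4∆ mutant, 16 h in wild type; dashed line) for SUC2, SNF3, RGT2 and STD1, 1 point per library. SUC2 is at 1033 or more in the 4 libraries after the line in both mutants and at 58.3 to 177 in wild type, while STD1 is lower after the line than before it in all 3 strains.

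The 2 genes of each paralogous pair were also compared within a library. Scaling enters this ratio only through the 1 TPM added to each gene, which weighs most on low genes such as STD1. The ratios were not rerun under median-of-ratios scaling, so how far it moves them was not tested. Proteins of SNF3 and RGT2 share 62.6% of aligned residues, those of MTH1 and STD1 61.3% and those of MIG1 and MIG2 33.1%. The log2 ratio of SNF3 over RGT2, each with 1 TPM added, had an early median of -2.15 in the nde1∆ nde2∆ ndi1∆ mutant, -1.83 in the cox4∆ mutant and -1.81 in wild type, and a late median of 0.78, 0.84 and 0.28. RGT2 thus exceeded SNF3 early, and SNF3 exceeded RGT2 late in the medians of all 3 strains. Wild type was below 0 again at 32, 38 and 58 h (-0.37, -0.018 and -0.30). The lowest late values were 0.13 and 0.27 in the nde1∆ nde2∆ ndi1∆ and cox4∆ mutants. Late, the ratio was 0.52 higher in the nde1∆ nde2∆ ndi1∆ mutant than in wild type (SD 0.34, higher at 9 of 9 hours, exact 2-sided sign-flip permutation p = 0.00391, adjusted over 18 tests 0.0352). In the cox4∆ mutant it was 0.46 higher (SD 0.54, 8 of 9 hours, exact permutation p = 0.0195, adjusted 0.0879), which did not pass.

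The MTH1 over STD1 log2 ratio had late medians of 3.79 in the nde1∆ nde2∆ ndi1∆ mutant, 3.62 in the cox4∆ mutant and 4.77 in wild type, against early medians of 0.70, 0.37 and 0.18 in the same strains. Late, it was -0.94 relative to wild type in the nde1∆ nde2∆ ndi1∆ mutant (SD 0.64, lower at 8 of 9 hours, exact permutation p = 0.00781, adjusted 0.0469) and -1.02 in the cox4∆ mutant (SD 0.66, 9 of 9 hours, exact permutation p = 0.00391, adjusted 0.0352). The smallest p these 9 pairs allow is 0.00391. All 3 passing ratios missed the threshold with a pseudocount of 0.1, at an adjusted p of 0.0703. MIG1 over MIG2 had late medians of -0.95, -0.54 and -1.50 in the nde1∆ nde2∆ ndi1∆ mutant, the cox4∆ mutant and wild type. The mean differences of 0.41 (exact permutation p = 0.105, adjusted 0.211) and 0.83 (exact permutation p = 0.0469, adjusted 0.105) did not pass. None of the 12 ratios in the early and middle windows passed.

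**Figure D4:**
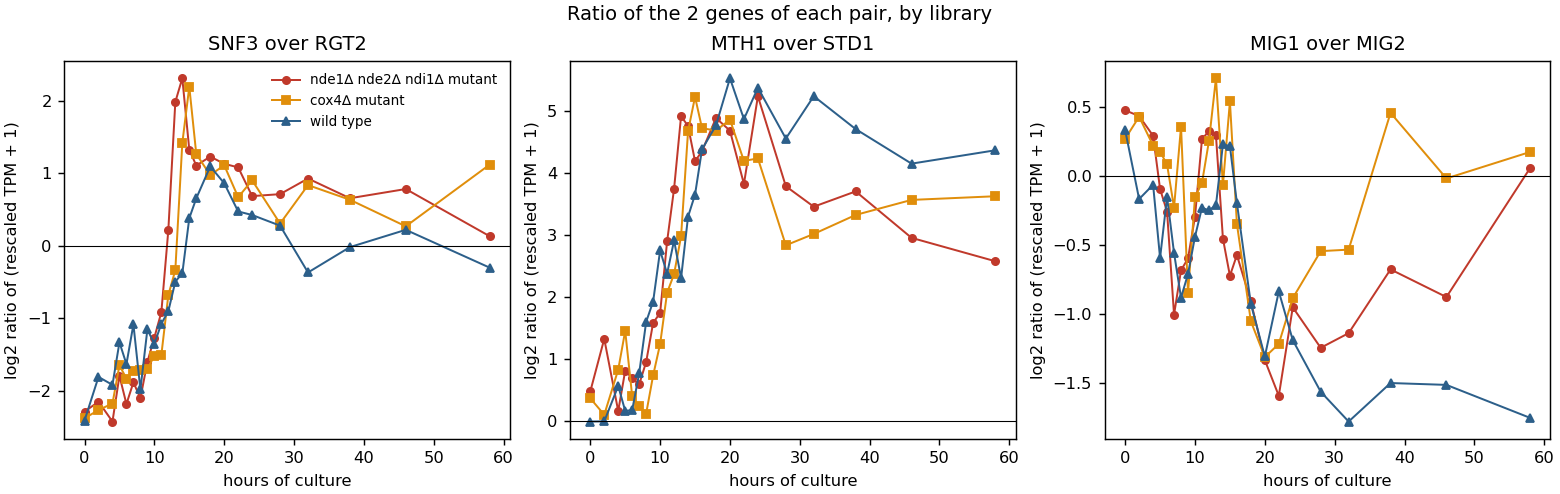
Log2 ratio of (rescaled TPM + 1) between the genes of 3 paralogous pairs against hours of culture, 1 point per library (nde1∆ nde2∆ ndi1∆ mutant circles, cox4∆ mutant squares, wild type triangles). SNF3 over RGT2 passes 0 in all 3 strains, and in wild type is below 0 again at 32, 38 and 58 h. Late MTH1 over STD1 has medians of 3.79 and 3.62 in the mutants and 4.77 in wild type.

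Other genes of the circuit were read from 6 lists, given as counts beside the late comparisons with wild type. Among all 5721 genes tested, 2.71% rose and 29.4% fell against wild type in the nde1∆ nde2∆ ndi1∆ mutant, and 2.46% rose and 26.3% fell in the cox4∆ mutant. Under median-of-ratios scaling these shares were 8.52% and 7.42%, and 7.71% and 7.35%. Of 15 genes other than SUC2 that glucose represses through Mig1, 3 were higher and 2 lower in the nde1∆ nde2∆ ndi1∆ mutant (median -0.13), and 2 higher and 4 lower in the cox4∆ mutant (median -0.02). The median over all genes was -0.65 and -0.61. Under median-of-ratios scaling 5 were higher and 2 lower in each mutant, and the medians were 0.53 and 0.43. FBP1, the gluconeogenic fructose bisphosphatase, was at -4.57 and -4.72, and JEN1, a lactate carrier, at -2.23 and -2.76. HXK1, a hexokinase, was at 1.60 and 1.62, HXT2, a hexose carrier, at 1.95 and 2.18, and CAT8, an activator of gluconeogenic genes, at 1.17 in the nde1∆ nde2∆ ndi1∆ mutant. SUC2 and FBP1, both repressed in glucose, thus differed from wild type in opposite directions in both mutants, and kept these directions under median-of-ratios scaling (FBP1 at -3.91 and -4.11). Over time, 9, 10 and 11 of the 15 rose and 0 fell, late against early, in the nde1∆ nde2∆ ndi1∆ mutant, the cox4∆ mutant and wild type, where 12.2%, 13.7% and 18.4% of all genes rose. Under median-of-ratios scaling 12, 12 and 11 of the 15 rose, where 1214, 1189 and 973 of 5717 genes did.

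Of 4 hexose carrier genes under Rgt1, 3 were higher late and none lower in the nde1∆ nde2∆ ndi1∆ mutant, and 3 were higher and 1 lower in the cox4∆ mutant. The 3 higher were HXT1, HXT2 and HXT3 in both mutants, and HXT2 is already counted in the Mig1 list. HXT1 was at 1.53 and 1.46 and HXT3 at 1.62 and 1.40 in the nde1∆ nde2∆ ndi1∆ and cox4∆ mutants, and HXT4, which the Mig1 list also holds, at -1.03 in the cox4∆ mutant, or -0.40 and not called under median-of-ratios scaling. Late against early, HXT1 and HXT3 fell in wild type (-4.39 and -3.22) and in both mutants. They were at -3.11 and -1.85 in the nde1∆ nde2∆ ndi1∆ mutant and at -2.93 and -1.55 in the cox4∆ mutant. HXT4 rose, at 2.92 in wild type and at 2.84 and 3.58 in the nde1∆ nde2∆ ndi1∆ and cox4∆ mutants. Of the 10 genes of sensor signalling and corepression 0 were higher and 3 lower in the nde1∆ nde2∆ ndi1∆ mutant, YCK2 (-1.57), YCK1 (-1.07) and AKR1 (-1.01), an enzyme that anchors Yck1 and Yck2 to membranes by a lipid. Among the same genes 0 were higher and 2 lower in the cox4∆ mutant, YCK2 (-1.56) and YCK1 (-1.07). None of the 10 was called under median-of-ratios scaling, in which YCK2 was at -0.93 and -0.96.

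Of 11 genes of the Snf1 kinase and its regulators, 0 were higher and 2 lower in the nde1∆ nde2∆ ndi1∆ mutant, the activating kinase genes TOS3 (-1.34) and SAK1 (-1.05), and 0 higher and 1 lower, TOS3 (-1.30), in the cox4∆ mutant. None of these calls held under median-of-ratios scaling, in which REG2, a phosphatase subunit gene that the Mig1 list also holds, was the 1 higher in the cox4∆ mutant (1.23). Of 3 other repressors of the Mig1 and Nrg1 families NRG1 was lower in both mutants (-1.26 and -1.35), and it too was under 2-fold with that scaling, in which MIG3 was higher in the nde1∆ nde2∆ ndi1∆ mutant (1.31). Of 17 measured genes of the Gpr1 and Ras branch, which sets cyclic AMP, 1 was higher and 3 lower in each mutant. The higher one was IRA2, which turns Ras off, at 1.88 and 1.59, and the lower ones were TPK3 (-1.73 and -1.49), RGS2 (-1.28 and -1.22) and PDE1 (-1.08 and -1.05). Under median-of-ratios scaling 4 of the 17 were higher in each mutant, and 1 was lower in the nde1∆ nde2∆ ndi1∆ mutant and 0 in the cox4∆ mutant.

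Over all 72 libraries each member was set beside 4425 other genes whose mean level reached 10 rescaled TPM, as a description with no test. Points of 1 strain are successive times of 1 culture, so they are not independent. SUC2 was most like BDH1, the butanediol dehydrogenase gene (Pearson r = 0.94 on the log2 scale), then YDR246W-A (0.91) and AIM17 (0.90). Within wild type alone its r with BDH1 was 0.72, with YDR246W-A 0.44 and with AIM17 0.36. SNF3 was nearest VHS1 (0.96), HXT5 (0.96), a hexose carrier of starved cells, and YIL077C (0.96), and MTH1 was nearest HXT5 (0.96), OM45 (0.96) and HAP4 (0.95), an activator of respiratory genes. RGT2 followed PIB2 (0.94), ERG11 (0.94) of sterol synthesis and PPZ1 (0.94), with an r of 0.74, 0.79 and 0.64 within wild type alone. STD1 followed HRI1 (0.94), CAB1 (0.93) and ARC1 (0.93). RGT1 was nearest HMG2 (0.89), AVT3 (0.88) and MHP1 (0.87), MIG2 nearest URA8 (0.90), TPO3 (0.89) and AQY2 (0.89), and MIG1 nearest BMH2 (0.77), SDS23 (0.76) and PUT2 (0.75). Among the members themselves SNF3 and MTH1 ran closest (r = 0.94), RGT2 ran against SUC2 (r = -0.75), and MIG1 had an r of 0.03 with SUC2.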

How the data were processed

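The deposited values were TPM per gene, 1 library for each of 3 strains at each of 24 times. Per the submitters' processing notes, bcl2fastq 2.20.0.422, Salmon 0.9.1 and the build sacCer3 were used. Neither Salmon's strand setting nor its transcript set is given in the sources used here, so reads of overlapping or antisense genes may be shared. Each library of the authors' TPM was brought to 1 common sum over the 5780 genes that are neither mitochondrial nor on a plasmid. These were taken as nuclear, with no filter for coding genes. The step was taken because mitochondrial and plasmid genes held 0.147% to 0.881% of the total.

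With R 4.3.3, limma 3.58.1 (trended, robust moderation) was fitted to log2(rescaled TPM + 1) for 5721 genes with a mean of at least 1. This scale understates changes of low genes. Strain comparisons used windows of 7, 8 and 9 times (0 to 8, 9 to 16 and 18 to 58 h) with the time as a block. Comparisons within a strain and those around the fall of HXT3 (24 libraries) had no block. Errors are SE of the fit, and tests were 2-sided. The 8 genes, the lists and the tests were chosen with earlier results of these data known. Members are always named. Beside them come the 3 genes most correlated with each and up to 6 called genes per list, by size of difference. The code was tested on simulated data. Alternatives were other pseudocounts, scalings, filters, windows and moderation, and leaving out each position around the fall of HXT3.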

Additional observations from a re-analysis of the deposited data

Results flagged for a closer look

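The change of SUC2, RGT2 and MTH1 over time differed between a mutant and wild type when that difference itself was tested. Late minus early, the nde1∆ nde2∆ ndi1∆ mutant minus wild type was 3.21 on the log2 scale for SUC2, -1.71 for RGT2 and -1.19 for MTH1. For the cox4∆ mutant it was 3.59 for SUC2 and -1.30 for RGT2. Across the fall of HXT3, after minus before, it was 4.94 for SUC2 and -1.04 for RGT2 in the nde1∆ nde2∆ ndi1∆ mutant, and 4.62 and -1.17 in the cox4∆ mutant. With the mark at the HXT7 maximum SUC2 was at 3.58 and 3.26 in the same mutants. In the cox4∆ mutant the fall of HXT3 coincides with the change of row letter. Over 18 to 58 h SUC2 was higher than wild type and RGT2 lower at 9 of 9 hours in both mutants. Of these, MTH1 lost its call under median-of-ratios scaling (-0.46, adjusted p = 0.180) and with an early window of 4 to 8 h, and late-minus-early RGT2 in the cox4∆ mutant lost it under that scaling and with a pseudocount of 5. Across the fall of HXT3 the RGT2 calls were lost in 10 and 6 of 17 settings in the nde1∆ nde2∆ ndi1∆ and cox4∆ mutants. Both mutants are compared with the same wild-type libraries, so their values are not independent of each other.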

How the results depend on the processing

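With 1 culture per strain the spread between cultures is not measured, and with depth unknown the counting error of low members such as STD1 cannot be given. Of 761 repeats of a member's difference, 694 kept direction and side of the threshold, and SUC2 kept its late, over-time and after-mark calls in both mutants under all of them. The settings did not weigh alike. With counts of members included, deposited TPM, no filter and no trended, robust moderation kept 82 results each and changed none. Median-of-ratios scaling kept 58, while 15 lost a call, 3 reversed and 6 counts moved. Causes of the changes were not tested. Median-of-ratios scaling called 1 member late in each mutant, 1 in the cox4∆ late-minus-early difference from wild type, 2 and 1 after the mark in the nde1∆ nde2∆ ndi1∆ and cox4∆ mutants and 1 in the cox4∆ change across it. Of all genes, that scaling called 8.97% higher and 8.2% lower in the cox4∆ late-minus-early difference. Its shares in the cox4∆ mutant were 5.74% and 6.66% after the mark, and 8.01% and 9.2% in the change across the mark. Thus scaled, all counts are relative to the median gene. Median-of-ratios scaling turned late MIG1 to 0.021 (nde1∆ nde2∆ ndi1∆) and 0.19 (cox4∆), and cox4∆ RGT1 to 0.51. A pseudocount of 5 called 1 member late in the nde1∆ nde2∆ ndi1∆ mutant, 1 in the cox4∆ late-minus-early difference from wild type, 3 in cox4∆ over time, 3 in the nde1∆ nde2∆ ndi1∆ mutant and 0 in wild type across the mark, 1 in either mutant's change across the mark relative to wild type, and 1 in cox4∆ after the mark. It turned the middle MTH1 over STD1 ratio of the cox4∆ mutant to -0.10. A pseudocount of 0.1 left that late ratio at -0.93 and -1.02 in the nde1∆ nde2∆ ndi1∆ and cox4∆ mutants and SNF3 over RGT2 at 0.58 in the nde1∆ nde2∆ ndi1∆ mutant, none of which passed the threshold any longer. With windows of 4 to 8 h and 28 to 58 h these became -1.31, -1.33 and 0.68, where 5 pairs cannot pass, and early MTH1 over STD1 turned to -0.014 and -0.047. The replicate block is the hour that the strains share. Without the replicate block, and with 9 to 13 h only, 0 members were called in the cox4∆ middle window. With 14 to 16 h, 2 (1 higher, 1 lower) were called in the nde1∆ nde2∆ ndi1∆ mutant and 3 (1 higher, 2 lower) in the cox4∆ mutant. The median over all genes stood at -0.69 and -0.64 there. A late window of 18 to 32 h put STD1 at -0.10 and -0.046, and 28 to 58 h put cox4∆ RGT1 at 0.32 and MIG2 over time in the nde1∆ nde2∆ ndi1∆ mutant at -0.0067. The filter at a mean of 10 takes out STD1, the 1 member called across the mark in wild type. Its means were 8.49, 8.84 and 8.95 rescaled TPM in the nde1∆ nde2∆ ndi1∆ mutant, the cox4∆ mutant and wild type. The 0 members then called there follow from that removal. With the mark at the HXT7 maximum wild-type SUC2 turned to 0.57, 2 members were called in wild type, and 1 in either mutant's change across the mark relative to wild type, as also with 3 libraries on each side. Leaving out 1 position around the mark gave 0 to 1 members called in wild type (0 without the position 3 libraries before the mark, which holds the 13 h library of wild type), 1 to 2 in the nde1∆ nde2∆ ndi1∆ mutant after the mark, and 1 to 2 in either mutant's change relative to wild type. Apart from median-of-ratios scaling, these settings are given without the share of all genes called, so their member counts have no background beside them.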
